A study of Homo sapiens with 28 samples.

Results

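Genes whose symbols begin with HNRNP, SRSF or SNRP make up 3 abundant protein families of pre-mRNA splicing, and their RNA was followed in H2009 and H596, cell lines from human lung tumours. Members were chosen by these prefixes and by a mean of at least 1 FPKM (fragments scaled by transcript length and by the number mapped in the library) over the libraries of a table. The rule found 48 of 13481 entries in the table of compound-treated cells, 25 HNRNP, 11 SRSF and 12 SNRP genes. It found 47 of 12087 entries in the H2009 siRNA table, where HNRNPA1P33 is not listed, and 47 of 12384 in the H596 siRNA table, where SNRPN is not listed. Every row with a prefix passed, so no member lay just below the minimum; the lowest table means were 4.24 FPKM for HNRNPA1L2 with the compounds, 7.82 FPKM for SRSF8 in the H2009 siRNA table and 2.69 FPKM for HNRNPA1L2 in the H596 siRNA table. SRSF12 is in none of the tables.

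The study concerns RUVBL1 and RUVBL2, AAA+ ATPases that act in chaperone complexes. Cells were treated for 24 h with 100 nM of compound B or of compound C, whose code names are all that is used here, or were left untreated (2 libraries per group in each line); no vehicle is named for the untreated cells. Other cells received siRNA against RUVBL1 (siBL1) or a non-targeting siRNA (siNT), harvested after 2.5 days in H2009 and after 3 days in H596 (2 libraries per group). Both lines are labelled wild type, non-small-cell lung cancer with adenocarcinoma histology, and nothing in the labels ties replicates to separate cultures. A p-value here therefore speaks of the spread among these libraries, which may be technical.

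Both lines expressed all 6 epithelial markers looked for. H2009 had the lung lineage genes NKX2-1 and SFTA3 at means of 66.4 and 47.6 FPKM in the compound table, whereas H596 had them at 0.617 and 0.0816 FPKM and expressed the squamous genes TP63 and KRT5 at 74.3 and 1160 FPKM, which goes against its label. Of 8 blood, endothelial and fibroblast markers, CD68 and COL1A1 were listed in the compound table, at means of at most 16.5 FPKM in either line. RUVBL1 averaged 1.43 FPKM with siBL1 and 76.0 FPKM with siNT in H2009 (log2 change -4.98, SE 0.34), and 2.39 FPKM with siBL1 and 118 FPKM with siNT in H596 (-5.13, SE 0.22). The files give no read depth, so the counting error behind a value is unknown.

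Pre-mRNA splicing is carried out by the spliceosome, whose U1 and U2 snRNPs recognise the 5′ splice site and the branch site of an intron. SNRP genes encode the Sm proteins, which form a ring on most spliceosomal snRNAs, and proteins specific to U1 (SNRPA, SNRPC) or U2 (SNRPA1, SNRPB2). SR proteins (SRSF genes) bind exonic enhancers through RNA recognition motifs and recruit the spliceosome through arginine-serine repeats, while the heterogeneous nuclear ribonucleoproteins (HNRNP genes) coat nascent RNA and often repress exons. Many SR and hnRNP genes carry poison exons, whose inclusion sends the RNA to nonsense-mediated decay, and growing tumour cells generally express these families at high levels.

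The gene starts of members gave a description that did not enter the choice of genes. RefSeq promoter windows (GRCh38.p14; the expression files use hg19) were found for 42 of the 48 members, and the 250 bases before the start were searched on both strands for the E-box letters CACGTG, the CCAAT box, the ETS-type letters CCGGAAG, the GC box GGGCGG and the TATA box letters TATAAA. Matches to different motifs can share end bases, and each was counted. The windows shown belong to the members of each family with the lowest and the highest log2 change with compound B in H2009 among genes with 1 window, leaving out HNRNPA1L2 because it shares sequence with HNRNPA1, and to SNRPA1, which had values in opposite directions in the 2 lines; matches are in capitals.
HNRNPD, chr4:82373992-82374241, minus strand: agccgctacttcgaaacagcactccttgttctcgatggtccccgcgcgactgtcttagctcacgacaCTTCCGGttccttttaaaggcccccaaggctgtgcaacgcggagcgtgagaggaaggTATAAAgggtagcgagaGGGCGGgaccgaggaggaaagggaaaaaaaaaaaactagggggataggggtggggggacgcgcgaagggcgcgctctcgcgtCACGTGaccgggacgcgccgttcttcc
HNRNPLL, chr2:38602929-38603178, minus strand: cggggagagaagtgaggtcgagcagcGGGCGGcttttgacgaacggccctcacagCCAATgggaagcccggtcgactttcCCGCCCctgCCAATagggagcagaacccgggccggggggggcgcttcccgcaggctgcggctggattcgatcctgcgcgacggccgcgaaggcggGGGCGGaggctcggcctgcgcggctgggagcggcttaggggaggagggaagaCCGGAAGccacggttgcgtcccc
SRSF1, chr17:58007247-58007496, minus strand: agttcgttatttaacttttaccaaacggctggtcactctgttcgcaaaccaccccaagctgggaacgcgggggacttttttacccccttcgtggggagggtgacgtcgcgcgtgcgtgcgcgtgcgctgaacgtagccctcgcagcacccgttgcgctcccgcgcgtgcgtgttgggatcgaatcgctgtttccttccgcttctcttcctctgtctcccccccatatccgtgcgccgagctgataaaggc
SRSF5, chr14:69766892-69767141, plus strand: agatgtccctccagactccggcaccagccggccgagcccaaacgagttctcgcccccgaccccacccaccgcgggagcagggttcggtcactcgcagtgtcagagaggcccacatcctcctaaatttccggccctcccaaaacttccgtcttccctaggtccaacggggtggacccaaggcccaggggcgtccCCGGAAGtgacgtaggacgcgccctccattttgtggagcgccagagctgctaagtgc
SNRPA, chr19:40750953-40751202, plus strand: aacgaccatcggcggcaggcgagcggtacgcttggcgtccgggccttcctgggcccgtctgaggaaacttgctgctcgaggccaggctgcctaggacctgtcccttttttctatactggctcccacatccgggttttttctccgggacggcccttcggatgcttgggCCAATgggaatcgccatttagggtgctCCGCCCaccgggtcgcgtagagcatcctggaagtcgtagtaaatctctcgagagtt
SNRPB2, chr20:16729776-16730025, plus strand: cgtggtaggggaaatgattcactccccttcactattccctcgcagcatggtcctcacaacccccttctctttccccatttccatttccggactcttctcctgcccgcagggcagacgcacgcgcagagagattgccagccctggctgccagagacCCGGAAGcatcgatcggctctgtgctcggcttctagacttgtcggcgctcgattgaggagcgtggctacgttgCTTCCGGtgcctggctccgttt
SNRPA1, chr15:101295249-101295498, minus strand: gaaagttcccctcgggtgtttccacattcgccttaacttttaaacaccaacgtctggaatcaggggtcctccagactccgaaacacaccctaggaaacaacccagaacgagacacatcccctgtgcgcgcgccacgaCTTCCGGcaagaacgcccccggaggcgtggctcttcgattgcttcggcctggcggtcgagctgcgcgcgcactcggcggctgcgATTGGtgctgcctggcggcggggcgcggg
The HNRNPD window holds CACGTG with its first base at -27 from the start, and the SRSF1 window holds none of the 5 motifs. Of the 11 members with a window that were called lower with compound B in H2009, 4 held CACGTG (36.4%; HNRNPA3, HNRNPD, HNRNPDL and HNRNPH3), against 2 of the other 31 members (6.45%; HNRNPH2 and HNRNPM) and 7.73% of all 27305 genes with a window. CCGGAAG was in 1 of the 11 (9.09%) and in 11 of the 31 others (35.5%), against 10.2% of all genes. CCAAT was in 72.7% and 51.6% of these groups and in 37.0% of all genes, and GGGCGG in 81.8% and 54.8%, against 46.2% of all genes. TATAAA was in 9.09% and 19.4%, against 13.0% of all genes. These counts are descriptions without a test, and genes with several windows count once if any window holds the letters.

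In untreated cells the members' levels ran from 0.0451 FPKM (SNRPN in H596) to 1513 FPKM (SNRPG in H2009). SNRPG, a core Sm protein, had the highest mean in both lines, with 740 and 1513 FPKM in H2009 and 519 and 1364 FPKM in H596. These ranges overlap those of HNRNPA2B1, which had 608 and 909 FPKM in H2009 and 623 and 945 FPKM in H596, so the order is not set beyond the spread of these libraries. HNRNPA2B1, HNRNPA1, HNRNPC and SNRPF made up the rest of the 5 highest members in H2009 and in H596. HNRNPA1 had 657 and 834 FPKM in H2009, which also lies within the range of HNRNPA2B1. The 5 lowest in H2009 were HNRNPA1P33, HNRNPA1L2, SRSF8, HNRNPU-AS1 and HNRNPUL2, and in H596 SNRPN, HNRNPA1L2, SRSF8, HNRNPLL and HNRNPU-AS1.

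A pair of members differed in level between the lines by far more than their replicates did. SNRPN, an imprinted Sm gene that can stand in for SNRPB, had 114 and 150 FPKM in untreated H2009 cells, against 0.0933 and 0.0451 FPKM in untreated H596 cells. HNRNPA1P33, a pseudogene of HNRNPA1, had 0.790 and 0.777 FPKM in H2009, against 21.6 and 39.9 FPKM in H596. These levels are descriptions. Values of HNRNPA1P10, HNRNPA1P33 and HNRNPA1L2, copies of HNRNPA1, are uncertain because reads can be split among near-identical copies. The same holds for HNRNPUL2-BSCL2, a readthrough over HNRNPUL2, for SNRPN, which shares its locus with SNURF, and for HNRNPU-AS1, an antisense gene, since the counting strand is not stated.

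Compound B in H2009 was set against untreated cells of the same line, and members of all 3 families were lower. Of the 48 members, 15 were called lower than in untreated cells and 0 higher (limma on log2(FPKM + 1), Benjamini-Hochberg adjusted p under 0.05 over all 12781 tested genes), while 5.02% of all tested genes were called lower and 6.36% higher. The median log2 change of the members was -0.70, against -0.01 for all tested genes, and in 35 members both compound B libraries lay below both untreated libraries, which held for 28.1% of all tested genes; in 0 members did both lie above, against 26.3%. In 42 members compound B was lower within both replicates (40.9% of all tested genes), and 24 had an unadjusted p under 0.05 (26.1%). Called lower were 11 of 25 HNRNP, 2 of 11 SRSF and 2 of 12 SNRP genes. Members took up 1.07 and 1.28% of summed FPKM in the compound B libraries, against 1.45 and 1.91% in the untreated ones. In H596 these shares were 1.11 and 1.48% with compound B and 1.27 and 1.60% untreated. With siBL1 they were 1.38 and 2.09% in H2009, against 1.74 and 2.54% with siNT. In H596 they were 0.92 and 1.39% with siBL1 and 0.99 and 1.46% with siNT. Only the compound B groups of H2009 did not overlap in this share. FPKM values are relative, and in bulk RNA fewer cells that express a gene and less of its RNA per cell cannot be told apart. The median over all genes was 8.67 and 7.58 FPKM in the untreated libraries, and most members lay above it. Members and all tested genes therefore differ in level, whose part in the result was not tested. After quantile normalization the members' median change was -0.47. When the replicate number was added as a block within each line, here the paired fit, 34 members were called lower and 0 higher, with 22.4% and 22.2% of all tested genes called in those directions.

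**Figure D1:**
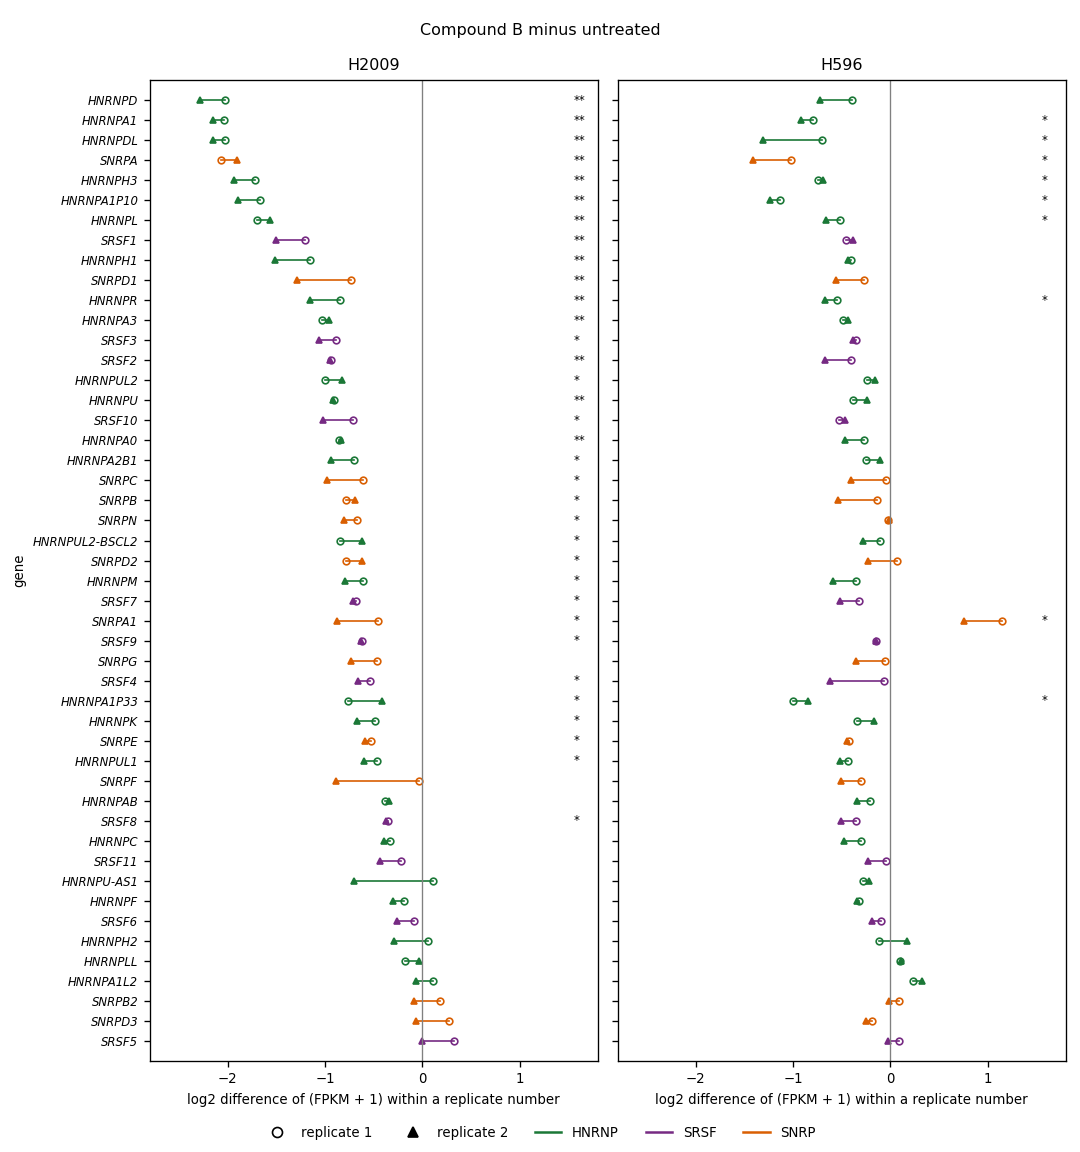
Log2 difference of (FPKM + 1) between compound B and untreated cells within replicate 1 (circles) and replicate 2 (triangles) for each of the 48 members, in H2009 (left) and H596 (right), ordered by the H2009 change and coloured by family. A pair of asterisks mark a call in the unpaired fit and 1 asterisk a call in the paired fit alone. Most points lie left of 0 in both lines, the mean H2009 changes reach -2.16 and SNRPA1 lies right of 0 in H596.

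Among the HNRNP genes of the A, B and D type, 5 of 8 were called lower. HNRNPD, which binds AU-rich elements and influences mRNA decay, had 77.4 and 96.2 FPKM with compound B, against 319 and 473 FPKM untreated. The groups were far apart, and the log2 change was -2.16 (SE 0.28, n = 2, limma adjusted p = 0.00187), a 4.46-fold lower level on the FPKM + 1 scale. HNRNPDL, its close paralog, had 24.8 and 14.6 FPKM with compound B and 105 and 68.3 FPKM untreated (-2.09, SE 0.45, adjusted p = 0.0183). In this gene the second library was lower in each group. HNRNPA1, a shuttling protein that shifts splice site choice and represses exons, had 159 and 187 FPKM with compound B, against 657 and 834 FPKM untreated (-2.10, SE 0.23, adjusted p = 0.000974).

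The smaller changes of this type were those of HNRNPA3 and HNRNPA0, which bind RNA much as HNRNPA1 does. HNRNPA3 had 39.7 and 50.3 FPKM with compound B and 82.2 and 98.3 FPKM untreated (log2 change -0.99, SE 0.19). HNRNPA0 had 49.2 FPKM in both compound B libraries, against 90.0 and 88.4 FPKM untreated (-0.85, SE 0.16; limma adjusted p = 0.0116 for each). The pseudogene HNRNPA1P10 was also called, at -1.78 (SE 0.45, adjusted p = 0.0351). HNRNPA2B1, a close relative of HNRNPA1, had 374 and 475 FPKM with compound B, against 608 and 909 FPKM untreated; it did not pass the unpaired test (-0.82, SE 0.35, adjusted p = 0.178) and passed the paired one (0.00445). HNRNPA1L2 had 5.38 and 5.60 FPKM with compound B and 4.91 and 5.88 FPKM untreated, groups that overlap.

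HNRNPH1, HNRNPH2, HNRNPH3 and HNRNPF bind runs of guanines, and 2 of these 4 were called lower. HNRNPH3 had 66.4 and 72.6 FPKM with compound B and 220 and 280 FPKM untreated, a log2 change of -1.82 (SE 0.21, limma adjusted p = 0.00115). HNRNPH1 had 153 and 141 FPKM with compound B and 341 and 405 FPKM untreated (-1.33, SE 0.19, adjusted p = 0.00319). The close relatives stayed nearer to their controls. HNRNPF had 207 and 188 FPKM with compound B, against 236 and 232 FPKM untreated (-0.25, SE 0.18), and HNRNPH2 had 89.3 and 90.1 FPKM with compound B, within the untreated range of 85.5 to 111 FPKM (-0.12, SE 0.21).

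Of the other 9 HNRNP proteins, HNRNPL, HNRNPR and HNRNPU were called lower. HNRNPL, which binds CA repeats, had 59.2 and 73.7 FPKM with compound B and 194 and 221 FPKM untreated (log2 change -1.63, SE 0.24, limma adjusted p = 0.00378), whereas its paralog HNRNPLL had 21.2 and 21.7 FPKM with compound B and 24.1 and 22.3 FPKM untreated (-0.11, SE 0.17, adjusted p = 0.771). HNRNPR, a relative of the mRNA-stability factor SYNCRIP, had 102 and 78.2 FPKM with compound B, against 184 and 175 FPKM untreated (-1.0, SE 0.22, adjusted p = 0.0207). HNRNPU, a nuclear scaffold protein that also acts in splicing, had 78.1 and 89.3 FPKM with compound B and 147 and 169 FPKM untreated (-0.91, SE 0.25, adjusted p = 0.0448). HNRNPC, which binds uridine tracts, and HNRNPK, which binds cytosine-rich RNA, were at -0.36 and -0.58; HNRNPK passed only the paired test and HNRNPC neither. HNRNPUL2, HNRNPM and HNRNPUL1, at -0.91, -0.70 and -0.53, were called only in the paired fit, as were the uncertain entries HNRNPUL2-BSCL2 (-0.73) and HNRNPA1P33 (-0.59). HNRNPA1P33 passed the minimum through H596 and had 0.0558 and 0.333 FPKM with compound B and 0.790 and 0.777 FPKM untreated in H2009, so its place among the 34 called and the 35 that do not overlap rests on values below 1 FPKM. HNRNPAB (-0.37) and HNRNPU-AS1 (-0.30) were called in neither fit.

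Among the SR proteins SRSF1, the prototype of the family, had 41.6 and 40.3 FPKM with compound B, against 97.4 and 116 FPKM untreated. The log2 change was -1.35 (SE 0.17, limma adjusted p = 0.00177). SRSF2, known for binding exonic enhancers and for its place in nuclear speckles, had 119 and 113 FPKM with compound B and 229 and 219 FPKM untreated (-0.94, SE 0.18, adjusted p = 0.0119). SRSF3, the smallest SR protein, differed by about as much but spread more between replicates. It had 79.9 and 114 FPKM with compound B and 149 and 240 FPKM untreated (-0.98, SE 0.45, adjusted p = 0.209; 0.000535 in the paired fit). SRSF4, SRSF7, SRSF8, SRSF9 and SRSF10 lay between -0.87 and -0.37 and were called only in the paired fit, while SRSF6 and SRSF11 were called in neither, at -0.18 and -0.33. SRSF5 had the highest log2 change of all members, with 152 and 168 FPKM with compound B and 121 and 168 FPKM untreated (0.16, SE 0.29, adjusted p = 0.809), and these groups overlapped.

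Among the SNRP genes 2 were called, SNRPA and SNRPD1. SNRPA, which binds a stem loop of the U1 snRNA, had 24.0 and 17.5 FPKM with compound B, against 104 and 68.5 FPKM untreated (log2 change -1.99, SE 0.34, limma adjusted p = 0.00662). SNRPC, the other U1 protein here, was at -0.80 (SE 0.41, adjusted p = 0.254; 0.00985 in the paired fit). SNRPA1 and SNRPB2, which bind the U2 snRNA as a pair, had 120 and 136 FPKM with compound B and 166 and 250 FPKM untreated (-0.67, SE 0.39), and 38.8 and 35.2 FPKM with compound B and 34.1 and 37.6 FPKM untreated (0.05, SE 0.24). SNRPD1, the only one of the 8 core Sm genes called, had 69.5 and 65.6 FPKM with compound B and 116 and 162 FPKM untreated (-1.01, SE 0.27, adjusted p = 0.0422). SNRPB, SNRPD2, SNRPE and SNRPN lay between -0.74 and -0.55 and passed only in the paired fit. SNRPF and SNRPG, at -0.46 and -0.60, had untreated libraries that differed from each other by more than the group means did, and SNRPD3 was at 0.10 (SE 0.19).

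The count of 15 depended on the libraries compared. It was 7 without replicate 1 or without replicate 2 of compound B, 9 without untreated replicate 1 and 8 without untreated replicate 2. Each of these 4 fits left 1 library in a group. HNRNPD, HNRNPA1, HNRNPH3, HNRNPL, SRSF1 and HNRNPH1 were called each time, and SNRPA in 3 of the 4 fits. HNRNPA3 was called in 2, and HNRNPDL and HNRNPA1P10 in 1. SNRPD1, HNRNPR, SRSF2, HNRNPU and HNRNPA0 were called in none of them. Marker genes also moved in this comparison: the summed squamous markers, mostly SOX2, were 2.63 and 3.28 FPKM with compound B and 10.3 and 12.4 FPKM untreated, with 1 of 5 called lower. Both measured lung lineage genes were called lower, and their sum was 33.8 and 41.9 FPKM with compound B and 126 and 163 FPKM untreated. Their part in the result was not tested.

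**Figure D2:**
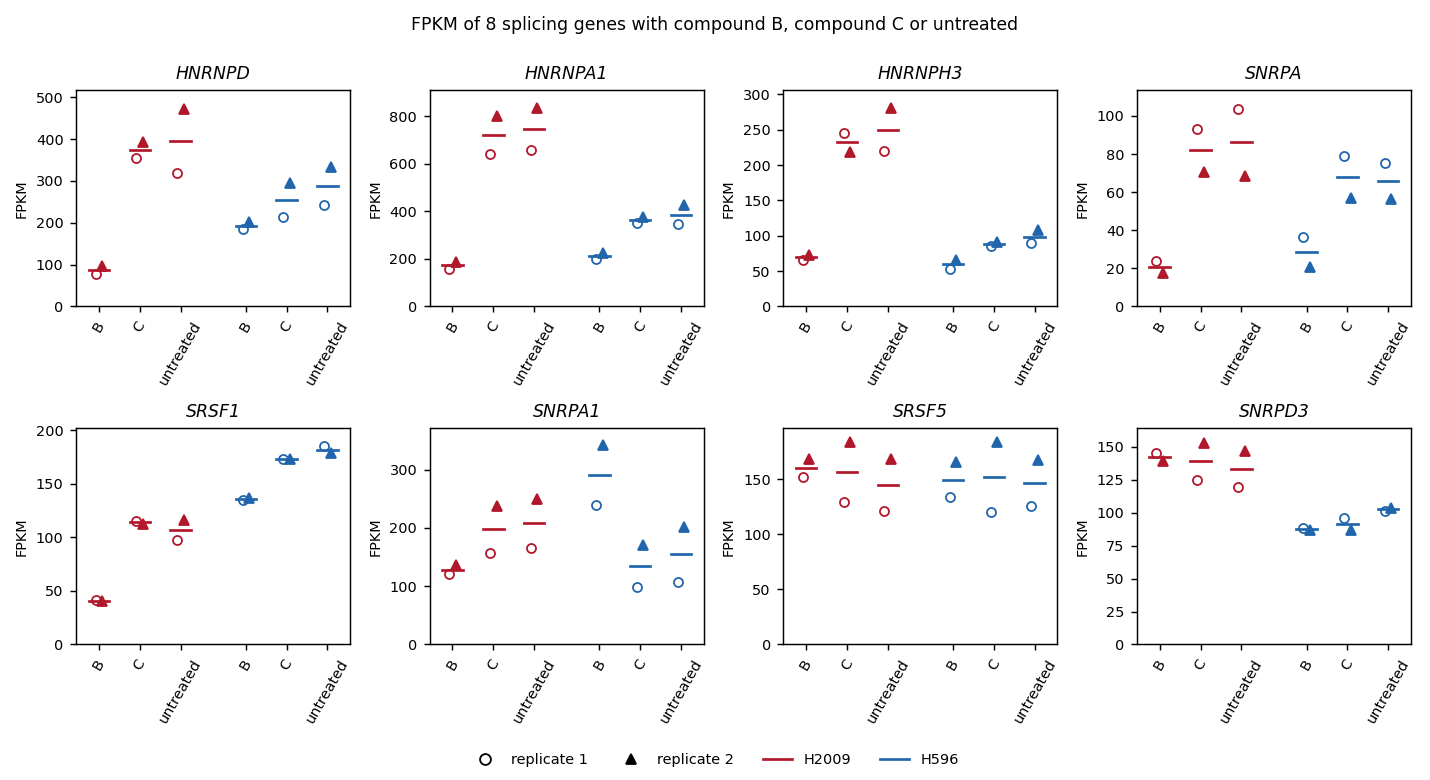
FPKM of 8 members in each library with compound B, compound C or no treatment, in H2009 (red) and H596 (blue); circles are replicate 1, triangles replicate 2 and bars the mean of 2 libraries. HNRNPD, HNRNPA1, HNRNPH3, SNRPA and SRSF1 lie below both untreated libraries with compound B in H2009 and, by less, in H596. SRSF5 overlaps its untreated libraries in both lines, and SNRPD3 does so in H2009 but lies lower in H596. SNRPA1 lies lower with compound B in H2009 and higher in H596.

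With compound C, used at 100 nM for 24 h like compound B, member levels stayed near those of untreated cells. In H2009, 0 of 48 were called in either fit and 0 had an unadjusted p under 0.05 (limma; 0.0704% of all tested genes). Of all tested genes 0.00782% were called lower and 0% higher in the unpaired fit, and 0.00782% in each direction in the paired fit. The groups did not overlap in 1 member, which was lower (2.53% of all tested genes), and in 0 higher members (4.26%). The members' changes ran from -0.15 to 0.30, with a median of 0.02. HNRNPD had 354 and 393 FPKM with compound C, inside the untreated range of 319 to 473 FPKM, and the 95% interval of its log2 change ran from -0.68 to 0.56. For SRSF1 the interval ran from -0.28 to 0.49 and for SNRPA from -0.82 to 0.71, so changes within these intervals could not be told from 0. In H596, 0 of 48 were called in either fit and 0 had an unadjusted p under 0.05 (limma; 0.156% of all tested genes), with 0% of all tested genes called in either fit. The groups did not overlap in 6 lower members and 1 higher one, against 7.37% and 3.9% of all tested genes. The changes there ran from -0.30 to 0.14, and 39 of 48 were below 0, a count that was 24 after quantile normalization.

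Set directly against compound C in H2009, compound B had 14 of 48 members called lower and 0 higher, against 5.28% and 6.16% of all tested genes. The 14 are those called against untreated cells apart from HNRNPU. HNRNPDL had 24.8 and 14.6 FPKM with compound B and 105 and 73.2 FPKM with compound C (log2 difference -2.14, SE 0.45), and SRSF1 had 41.6 and 40.3 FPKM with compound B and 115 and 113 FPKM with compound C (-1.46, SE 0.17). In 34 members both compound B libraries lay below both compound C libraries and in 0 above, against 27.2% and 24.8% of all tested genes, and 23 had an unadjusted p under 0.05 (26.5%). With the replicate block, 36 were lower and 0 higher, with 24% and 21.6% of all tested genes. This comparison and that with untreated cells share the compound B libraries and are not independent. With 1 compound B library left out, whichever it was, the count was 7.

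In H596 the changes with compound B lay nearer to 0. Of 48 members, 0 were called in the unpaired fit (limma, with 12 at an unadjusted p under 0.05, 11 of them below 0, against 5.75% of all tested genes, and 0% of those called), and the median change was -0.36, against -0.03 for all tested genes. In 26 members both compound B libraries lay below both untreated ones, and in 3 above, which held for 15.2% and 12.8% of all tested genes. The paired fit called 8 lower and 1 higher, against 2.89% and 3.79% of all tested genes. The 8 were SNRPA and 7 HNRNP genes, 2 of them copies of HNRNPA1; 0 of 11 SRSF genes and 0 of 8 core Sm genes were called. The summed squamous markers were lower too, at 1108 and 1485 FPKM with compound B and 1550 and 1819 FPKM untreated, with 2 of 5 called lower in the paired fit; their part in the result was not tested. With compound C these sums were 1281 and 1496 FPKM, which overlap those with compound B. Against untreated cells 0 of 5 were called with compound C in either fit, and 2 were lower at an unadjusted p under 0.05 (limma).

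SNRPA had the lowest log2 change in H596, with 36.5 and 20.5 FPKM with compound B, against 75.3 and 56.2 FPKM untreated (log2 change -1.22, SE 0.34, limma adjusted p = 0.436; 0.00175 in the paired fit). HNRNPDL had 53.1 and 22.2 FPKM with compound B and 87.2 and 56.5 FPKM untreated (-1.01, SE 0.45; paired adjusted p = 0.00689). HNRNPA1 had 198 and 226 FPKM with compound B and 345 and 427 FPKM untreated (-0.86, SE 0.23; paired adjusted p = 0.0107). In these 3 genes the groups did not overlap. HNRNPH3 (-0.72), HNRNPR (-0.61) and HNRNPL (-0.59) were the other protein-coding genes called, along with HNRNPA1P10 (-1.19) and HNRNPA1P33 (-0.92). HNRNPD had 184 and 203 FPKM with compound B and 242 and 334 FPKM untreated and was called in neither fit (-0.55, SE 0.28; paired adjusted p = 0.0736).

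SNRPA1, a protein of the U2 snRNP, went the other way in H596. It had 239 and 341 FPKM with compound B, against 108 and 202 FPKM untreated, a log2 change of 0.95 (SE 0.39, limma adjusted p = 0.811; 0.00923 in the paired fit). Within replicates 1 and 2 the differences were 1.14 and 0.75. Against compound C, with 99.2 and 170 FPKM, the difference was 1.13 (SE 0.39; paired adjusted p = 0.0052). SNRPB2, its U2 partner, had 54.7 and 58.2 FPKM with compound B and 51.6 and 58.7 FPKM untreated (0.04, SE 0.24). Against compound C in H596 0 of 48 members were called in the unpaired fit (limma; 11 at an unadjusted p under 0.05, against 4.69% of all tested genes, of which 0.00782% were called higher and 0% lower). The groups did not overlap in 21 lower and 2 higher members, against 13.3% and 13.6% of all tested genes. The paired fit called 6 lower and 2 higher, against 1.67% and 2.99% of all tested genes; the second higher one was HNRNPA1L2, at 0.45, and after quantile normalization the same fit called 8 lower and 1 higher.

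The difference between the lines was tested as the change with compound B in H2009 minus that in H596. The unpaired fit called 0 of 48 members (limma; 7 at an unadjusted p under 0.05, all below 0; smallest adjusted p = 0.158). Of all tested genes 0.125% were called lower and 0.329% higher, and 9.04% had an unadjusted p under 0.05. With the replicate block, 10 were called lower and 0 higher, against 6.11% and 8.19% of all tested genes. SNRPA1 differed by -1.61 (SE 0.56, paired adjusted p = 0.00164) and HNRNPD by -1.60 (SE 0.39, paired adjusted p = 0.00166). HNRNPA1, HNRNPH3, HNRNPDL, HNRNPL, SRSF1, HNRNPH1 and SNRPA lay between -1.24 and -0.77. SNRPN was the other, at -0.72, and its H596 values are near 0, 1 library with compound C being listed at 0, so no change could be seen there.

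**Figure D3:**
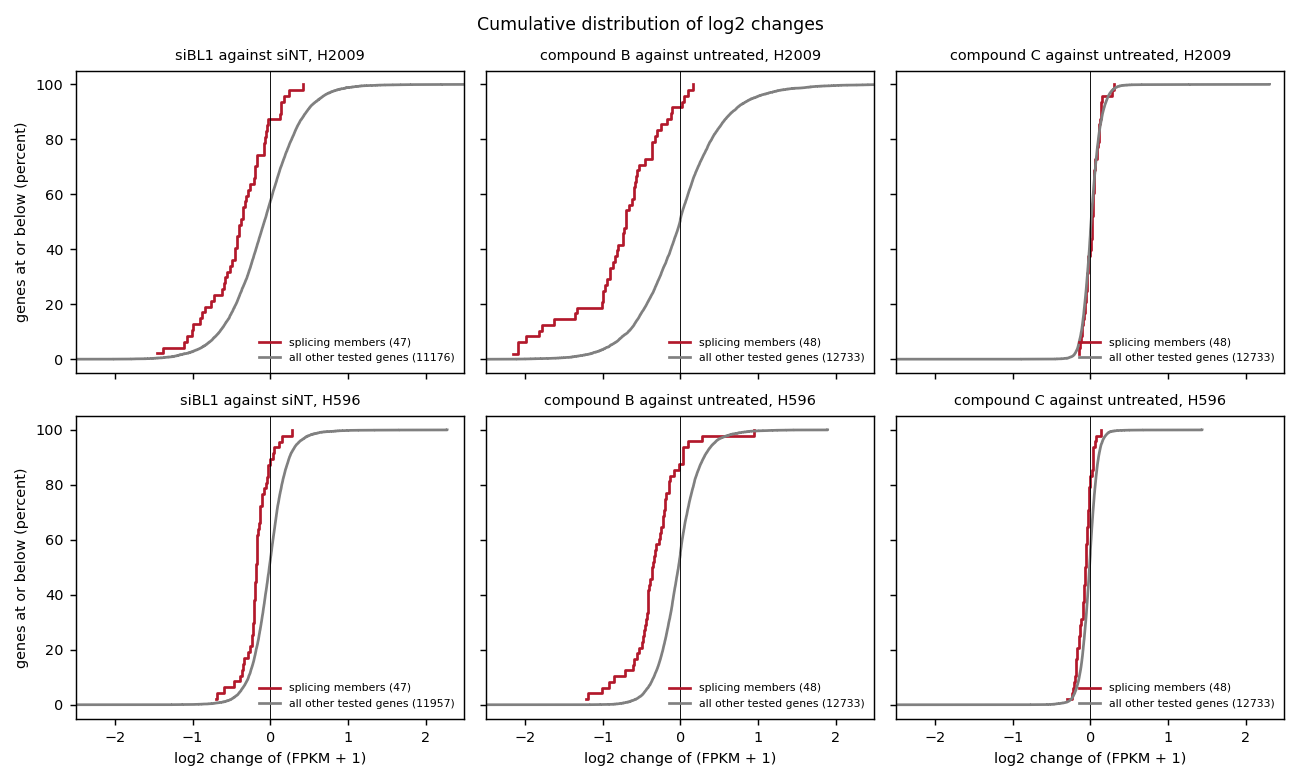
Cumulative percentage of members (red) and of all other tested genes (grey) by log2 change of (FPKM + 1), for siBL1 against siNT, compound B against untreated and compound C against untreated, in H2009 (top) and H596 (bottom); the axis ends at -2.5 and 2.5. The red curve lies left of the grey one in the siBL1 and compound B panels, with member medians of -0.37 and -0.70 in H2009 and -0.18 and -0.36 in H596, and close to it with compound C.

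Knockdown of RUVBL1 also went with lower values of many members. In H2009 the unpaired fit called 0 of 47 members (limma; 4 at an unadjusted p under 0.05, all below 0, against 4.74% of all tested genes), with 0% of all 11223 tested genes called. RUVBL1 itself, at -4.98, was among the genes not called. The 0 calls of this fit therefore do not show that members were unchanged. The median change was -0.37, against -0.08 for all tested genes, and 14 members had both siBL1 libraries below both siNT libraries, which held for 18.9% of all tested genes, and 1 had both above (12.1%). In 36 members siBL1 was lower within both replicates, against 47.9% of all tested genes. The paired fit called 27 lower and 1 higher, against 27% and 15.4% of all tested genes; after quantile normalization it called 19 lower and 3 higher. Called lower were 18 of 24 HNRNP, 6 of 11 SRSF and 3 of 12 SNRP genes. The SNRP share, 25%, was near that of all tested genes. SOX2, the only squamous marker in that table, had 4.13 and 9.90 FPKM with siBL1 and 13.9 and 22.8 FPKM with siNT, and both lung lineage genes and 3 of 6 epithelial markers were called lower in the paired fit. The summed epithelial markers were 940 and 2493 FPKM with siBL1 and 1258 and 2638 FPKM with siNT; their part in the result was not tested.

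SNRPA had the lowest log2 change, with 33.4 and 10.9 FPKM with siBL1, against 85.1 and 34.7 FPKM with siNT (log2 change -1.46, SE 0.71, limma adjusted p = 0.967; 0.000155 in the paired fit). The libraries of replicate 2 were lower in both groups. HNRNPH3 had 102 and 161 FPKM with siBL1 and 271 and 416 FPKM with siNT (-1.38, SE 0.42), and HNRNPH1 had 178 and 198 FPKM with siBL1 and 359 and 399 FPKM with siNT (-1.01, SE 0.31). HNRNPAB, a relative of HNRNPD, had 130 and 58.6 FPKM with siBL1 and 274 and 132 FPKM with siNT (-1.11, SE 0.59; paired adjusted p = 0.000233), while with compound B in H2009 it was at -0.37. HNRNPA1P10 was also among the 5 lowest changes (-1.07). HNRNPDL was at -1.0, HNRNPR at -0.91, SRSF1 at -0.84 and HNRNPA1 at -0.73, all called in the paired fit.

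HNRNPD, whose change with compound B was the lowest in this line, had 338 and 446 FPKM with siBL1 and 435 and 581 FPKM with siNT, a log2 change of -0.37 (SE 0.37; limma paired adjusted p = 0.0355). The only member called higher was the retrogene HNRNPA1L2, with 11.5 and 11.9 FPKM with siBL1 and 8.21 and 8.68 FPKM with siNT (0.43, SE 0.29; paired adjusted p = 0.0187). Of the 8 core Sm genes 2 were called lower in the paired fit, SNRPD2 (-0.76) and SNRPN (-0.50). That share, 25%, was near the 27% of all tested genes called lower. The other 6 lay between -0.31 and 0.14.

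**Figure D4:**
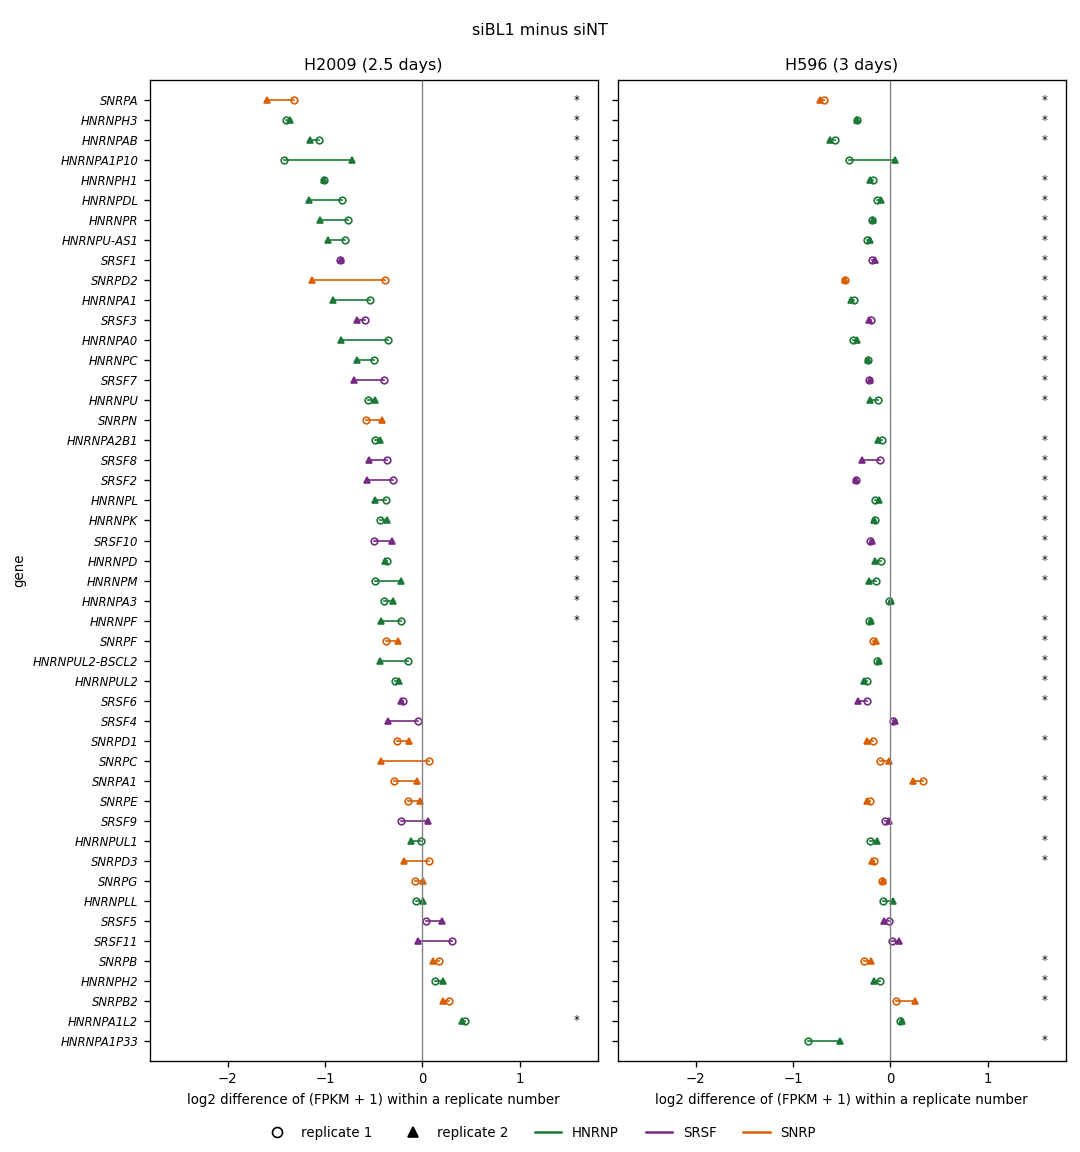
Log2 difference of (FPKM + 1) between siBL1 and siNT within replicate 1 (circles) and replicate 2 (triangles) for each member, in H2009 after 2.5 days (left) and H596 after 3 days (right), ordered by the H2009 change and coloured by family; an asterisk marks a call in the paired fit. SNRPA has the lowest mean of its replicate differences in H2009, -1.46, and in H596, -0.70, and most other H596 changes are nearer to 0. The lowest single point in H596 is HNRNPA1P33 in replicate 1, at -0.85.

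In H596 the changes with siBL1 were small but close to each other in the 2 replicates. The unpaired fit called 0 of 47 members (limma; 1 at an unadjusted p under 0.05, against 1.14% of all tested genes), with 0% of all 12004 tested genes called. Here too RUVBL1, at -5.13, was not called, so the 0 calls do not show that members were unchanged. The paired fit called 35 lower and 2 higher, against 26.6% and 19.8% of all tested genes, and the median change was -0.18, against -0.01; after quantile normalization that fit called 22 lower and 3 higher. Both siBL1 libraries lay below both siNT libraries in 8 members, which held for 8.64% of all tested genes, and above them in 0 (9%), while 39 were lower within both replicates (44.7%). The summed squamous markers were 399 and 589 FPKM with siBL1 and 678 and 1026 FPKM with siNT, with 3 of 5 called lower in the paired fit. Of the 6 epithelial markers 5 (83.3%) were also called lower, with a median change of -0.31 and sums of 2345 and 3994 FPKM with siBL1 and 3221 and 5238 FPKM with siNT; their part in the result was not tested. Called lower in the paired fit were 21 of 25 HNRNP, 7 of 11 SRSF and 7 of 11 SNRP genes, 6 of the SNRP genes being core Sm genes.

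SNRPA had 36.6 and 22.4 FPKM with siBL1, against 59.2 and 37.5 FPKM with siNT (log2 change -0.70, SE 0.39; limma paired adjusted p = 7.9e-05). HNRNPAB had 106 and 100 FPKM with siBL1 and 158 and 155 FPKM with siNT (-0.59, SE 0.21; paired adjusted p = 0.000123), and in both genes the groups did not overlap. HNRNPA1P33 (-0.68), SNRPD2 (-0.46) and HNRNPA1 (-0.39) were the others among the 5 lowest changes. The members called higher were the U2 proteins: SNRPA1 had 104 and 142 FPKM with siBL1 and 82.0 and 121 FPKM with siNT (0.28, SE 0.32; paired adjusted p = 0.00191), and SNRPB2 was at 0.15 (SE 0.30, paired adjusted p = 0.0478). HNRNPD was at -0.13. Because the siRNA times differ between the lines, the 2 lines were not tested against each other.

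The 4 comparisons of compound B and siBL1 used different control libraries for each treatment and line, and 46 members were measured in all of them. Of these, 29 (63%) were lower in all 8 differences within a replicate and 0 were higher in all 8, against 15.5% and 8.23% of the 10300 genes tested in all 4 comparisons. HNRNPA1, HNRNPDL, HNRNPH3, HNRNPL, HNRNPR and SNRPA, 6 in all (13%), were called lower in the paired fit in all 4, against 1.17% of those genes. In H2009, 23 members were called lower in that fit with both siBL1 and compound B, 85.2% of the 27 with siBL1 and 69.7% of the 33 with compound B among shared members; over all genes tested in both tables these shares were 48.6% and 54.2%. In H596 it was 7 members, 20% of the 35 with siBL1 and 87.5% of the 8 with compound B, against 6.38% and 56.5% over all genes. Such shares depend on how many genes were lower with each treatment. With compound B, 33 of the 47 shared members were lower in H2009 and 8 of 47 in H596. Over all shared genes these counts were 2690 of 11074 and 359 of 11695. The shares therefore do not show closer agreement of the treatments for members than for other genes. The siRNA and compound tables may have been scaled separately, so sizes set side by side between them are descriptions and their differences were not tested.

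Other parts of the splicing machinery were counted by lists of named genes in H2009 with compound B. Of 30 measured snRNP and LSM proteins outside the 3 families, 3 (10%) were called lower in the unpaired fit, against 5.02% of all tested genes: SNRNP35 of the U11/U12 snRNP, SF3B3 of the U2 snRNP and LSM6 of the U6 snRNP. SNRNP35 averaged 5.98 FPKM with compound B and 22.8 FPKM untreated (log2 change -1.75, SE 0.23, limma adjusted p = 0.00194), and SF3B3 averaged 18.9 FPKM with compound B and 42.5 FPKM untreated (-1.13, SE 0.16, adjusted p = 0.00308). Of 29 other splicing regulators 2 (6.9%) were called lower, PTBP1, which represses exons through pyrimidine tracts (-1.36, SE 0.32), and EWSR1 (-1.08, SE 0.19). Of 11 genes of the SMN complex and Sm methylation, which load Sm proteins on snRNAs, 6 SR protein kinases and 10 nonsense-mediated decay factors, 0 were called (limma; 2, 1 and 0 at an unadjusted p under 0.05). In the paired fit, where 70.8% of the members and 22.4% of all tested genes were lower, 19 of the 30 snRNP and LSM genes (63.3%) and 12 of the 29 other regulators (41.4%) were lower and 0 of either list higher. The SMN complex and methylation list had 5 lower and 1 higher, and the kinases 1 lower and 1 higher (CLK1, 0.72). Of the 10 decay factors 2 were higher, among them SMG5 (0.52), while 22.2% of all tested genes were higher in that fit.

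The same lists had 0 unpaired calls with siBL1 against siNT in either line and with compound B against untreated cells in H596 (limma; at most 2 genes of a list at an unadjusted p under 0.05), so their counts come from the paired fit. With siBL1 in H2009, 9 of 30 snRNP and LSM genes (30%) were lower and 4 higher, and 8 of 29 other regulators (27.6%) were lower and 1 higher, shares near the 27% of all tested genes that were lower. Of 11 SMN complex and methylation genes 5 (45.5%) were lower and 1 higher. TAF15, an RNA-binding relative of EWSR1, had the largest change, with a mean of 51.4 FPKM with siBL1 and 179 FPKM with siNT (-1.79, SE 0.37, paired adjusted p = 7.8e-05). Of the 10 decay factors 6 were higher and 1 lower, with UPF3B at 93.1 FPKM with siBL1 and 48.1 FPKM with siNT (0.94, SE 0.45). Among the 6 kinases that phosphorylate SR proteins 2 were higher (CLK4, 0.90, and CLK1, 0.67) and 1 lower (SRPK1, -0.78). Of all tested genes 15.4% were higher there. With siBL1 in H596, 15 snRNP and LSM genes (50%) were lower and 2 higher, 13 other regulators (44.8%) were lower and 2 higher, and 6 SMN complex and methylation genes (54.5%) were lower, against 26.6% of all tested genes. In that comparison 2 kinases were higher (CLK4, 0.34, and CLK1, 0.15), and 5 decay factors were higher and 1 lower. Of all tested genes 19.8% were higher in it. With compound B in H596, 1 of 30, 2 of 29 and 0 of 11 genes of the first 3 lists were lower (SNRNP48, -0.60; TRA2B, -0.66; PTBP1, -0.55), 0 of 6 kinases were called, and 1 of 10 decay factors was higher (SMG9, 0.59); of all tested genes 2.89% were lower and 3.79% higher.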

How the data were processed

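RNA was measured in 20 libraries (TruSeq stranded mRNA kit, per the labels' protocols); the 8 cDNA libraries of the series were not analysed here. The authors deposited 3 tables of gene-level FPKM, which give no read counts. The submitters' processing notes name hg19, Cufflinks 2.2.1, TopHat2 2.0.12 and CASAVA 1.8.2. Of the H2009 siRNA entries, 19 bear names turned into dates and were left out. Each table was tested on its own, on log2(FPKM + 1), using limma 3.58.1 (R 4.3.3) with moderation along a mean-variance trend. Genes needed a mean FPKM of at least 1, which in the compound table had to be met in either line; 12781 genes were tested there, 11223 in the H2009 siRNA table and 12004 in the H596 siRNA table. The compound fit holds all 12 libraries and 6 group means. With siBL1 the paired fit has 4 libraries for the group means and the block. Its p-values there rest largely on spread borrowed from other genes. Every SE is from the unpaired fit, and the log2(FPKM + 1) scale understates changes of low genes.

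Differences between replicates 2 and 1 correlated across genes in all 45 pairs of the 10 groups (r from 0.459 to 0.966). The labels do not say what a replicate number marks, and this judgement was made with the counts of calls known, so the unpaired fit is the result and the paired fit stands beside it. The members, the lists and the tests were chosen with earlier results of these data known. Named are all members called in the unpaired fit, the 5 highest and 5 lowest called in the paired fit, the core Sm, U1, U2 and SRSF genes, and the 5 highest and lowest by level; of other lists, up to 3 called genes per comparison. Relatives and other entries named beside them were chosen after their values were seen. The fits were run on simulated data built with a replicate effect. That setting suits the paired fit, so the run does not choose between the fits. Alternatives tried were the block, pseudocount, filter, quantile normalization, trend, a line alone and leaving out single libraries.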

Additional observations from a re-analysis of the deposited data

Results flagged for a closer look

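The change with compound B in H2009 minus that in H596 passed the paired test for 10 members (limma, replicate number as a block), and for 0 of them in the unpaired fit. The differences on the log2 scale were -1.61 for SNRPA1, -1.60 for HNRNPD, -1.24 for HNRNPA1, -1.11 for HNRNPH3, -1.09 for HNRNPDL, -1.04 for HNRNPL, -0.94 for SRSF1, -0.91 for HNRNPH1, -0.77 for SNRPA and -0.72 for SNRPN. SNRPN stood at or below 0.115 FPKM in every H596 library of that table, so its difference is the H2009 change alone.

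In SNRPA1 and HNRNPLL the compound B libraries lay below both untreated libraries in H2009 (log2 changes of -0.67 and -0.11) and above both in H596 (0.95 and 0.10). For SNRPA1 the test of the difference is the one given above. For HNRNPLL the opposite directions are small in both lines, and the test of the difference did not pass (-0.21, SE 0.24, limma paired adjusted p = 0.476).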

How the results depend on the processing

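With the replicate block, the paired fit, the number of members called was 28 for siBL1 in H2009, 37 for siBL1 in H596, 34 and 36 for compound B against untreated and against compound C in H2009, 9 and 8 for the same comparisons in H596, and 10 for the difference between the lines. With the block and quantile normalization together these counts were 22, 25, 32, 30, 6, 9 and 10. Both compound B counts in H2009 were 8 when the libraries of that line were fitted alone. Leaving out single libraries gave 7 to 20 calls against untreated cells in H2009 and 7 to 16 against compound C; the 20 came without replicate 2 of compound C, a fit added after the data were seen, and the cause was not tested. Of the alternatives run for single members, 386 left the call as it was, 61 added a call, 33 lost one and 0 turned the direction. The block alone, the filters and the trend leave a log2 change as it is, so they could not turn a direction. Only the pseudocount, quantile normalization and left-out libraries could, and the members followed had been called in the unpaired or the paired fit. Quantile normalization alone moved the median of all genes by at most 0.09 and the members' medians to -0.47 (compound B, H2009), -0.23 (compound B, H596), -0.23 (siBL1, H2009) and -0.09 (siBL1, H596); the SNRP median with siBL1 in H2009 was then -0.03. Depth is unknown, so counting error could not be separated from the spread between libraries.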
